A study of Arabidopsis with 6 samples.

Results

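The WRKY transcription factors described here are 6 Arabidopsis thaliana genes, WRKY6, WRKY20, WRKY22, WRKY42, WRKY47 and WRKY53. A gene was a member if its symbol was WRKY followed by a number and if an array probe set was paired with that gene alone. The 6 genes stand among 13356 named genes and 22746 tested probe sets, and each is measured by a single probe set. The gene table used for names holds 67 WRKY symbols, and the other 61 are not analysed here.

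Transcripts were measured on Affymetrix ATH1 arrays in the aerial parts of plants of the Col-3 background, grown on soil for 21 days at 22 °C with 8 h of light and 16 h of dark. The 3 arrays of the apum23 mutant were set against 3 arrays of wild type (Col-3), and no treatment was given. The series design and the growth protocol name the mutant as apum23-1, while the descriptions of apum23 replicates 2 and 3 read apum23-2 and apum23-3. APUM23 is a nucleolar RNA-binding protein of the Pumilio family that takes part in the processing of ribosomal RNA precursors. Its own transcript is not analysed here, so it cannot serve to check the genotype labels.

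WRKY proteins are a plant family of transcription factors named after a conserved run of amino acids in their DNA-binding domain. They bind a short promoter element called the W box, which many defence genes and many WRKY genes themselves carry. In leaves the family is best known for its part in the response to pathogens and in leaf senescence, and several members are induced quickly by stress. The family is divided by domain number and zinc finger type into group I, group II with its subgroups, and group III. WRKY20 belongs to group I, whose proteins carry a pair of WRKY domains. WRKY6, WRKY42 and WRKY47 belong to subgroup IIb, WRKY22 to subgroup IIe and WRKY53 to group III.

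Of the 6 genes, 2 rose in apum23 plants. WRKY53, a regulator of leaf senescence and of defence, was 3.07-fold higher, and WRKY47, a subgroup IIb gene with a reported role in aluminium tolerance, was 2.32-fold higher. The remaining 4 genes, WRKY6, WRKY20, WRKY22 and WRKY42, did not pass the test, and 0 fell. Over all tested probe sets 9.69% were higher and 10.0% lower in apum23 by the same rule, a limma adjusted p under 0.05 on quantile-normalized values. On the deposited values the same 2 genes were called, where 5.31% of all probe sets were higher and 1.38% lower. With arrays centred on their medians they were called as well, where 5.26% were higher and 7.92% lower. At an unadjusted p under 0.05, limma counted 3 of the 6 genes higher (WRKY6 was the added gene) and 0 lower, where 14.5% of all probe sets were higher and 16.2% lower. The median log2 difference of the 6 genes was 0.28, against -0.017 for all tested probe sets.

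Brightness was used to tell well-measured genes from dim ones. On the normalized log2 scale the lower quartile of each array was 3.596 and its median 5.77. A gene was called well measured when its mean over the 6 arrays was at least 1 above that quartile, which put the limit at 4.60. WRKY6 (mean 5.71), WRKY20 (7.65), WRKY47 (5.77) and WRKY53 (5.94) were well measured. WRKY22, at 4.50, lay just outside the limit, and WRKY42, at 3.78, was only 0.18 above the lower quartile. No member lay close to the limit on its upper side, where WRKY6 was the nearest. Intensities near the lower quartile were taken as close to background, which was not itself measured, and the size of a log2 change is uncertain there. The standard errors of the log2 differences did not simply follow brightness. They were smallest for the brightest gene, WRKY20 (0.095), but 0.115 for WRKY42, 0.165 for WRKY22 and 0.213 for WRKY53.

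**Figure D1:**
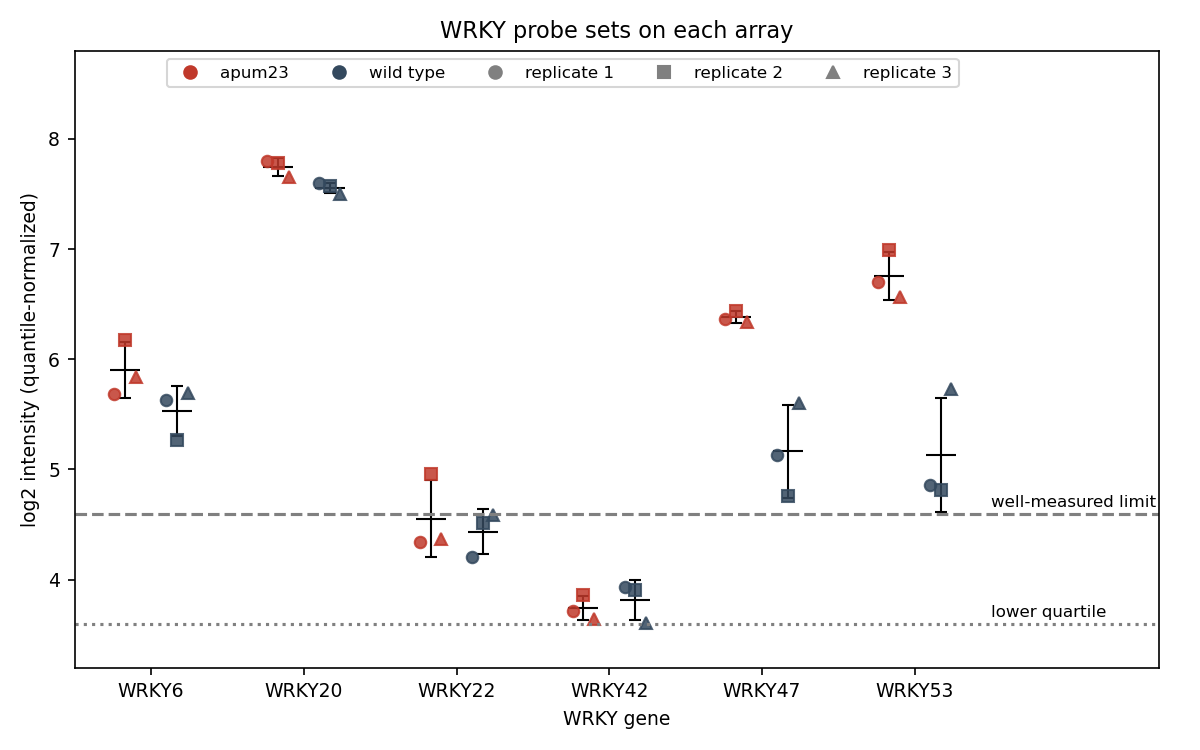
Quantile-normalized log2 intensity (vertical axis) of the 6 WRKY genes on each array, with apum23 in red left of wild type in blue and a symbol for each replicate number; black bars give the mean and SD of 3 arrays. For WRKY53 and WRKY47 all apum23 arrays lie above all wild-type arrays, while WRKY42 sits near the lower quartile (dotted line at 3.596) and WRKY22 just under the well-measured limit (dashed line at 4.60).

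WRKY53 encodes an early-acting regulator of age-dependent leaf senescence. Its normalized log2 intensity was 6.71, 6.99 and 6.57 on apum23 arrays 1 to 3, against 4.86, 4.82 and 5.73 on wild-type arrays 1 to 3. The groups did not overlap, and the lowest apum23 array stood 0.83 above the highest wild-type array, replicate 3. The mean was 6.75 ± 0.22 in apum23 and 5.13 ± 0.52 in wild type (SD, n = 3 each). The log2 difference was 1.62 with a standard error of 0.21 and a 95% interval of 1.15 to 2.09 (limma adjusted p = 0.000367). It ranked 61st from the top among all tested probe sets. The spread was wider in wild type, where replicates 1 and 2 lay close together and replicate 3 was higher than both. Wild-type replicate 3 lay at least 0.5 above both other wild-type arrays in 0.822% of all probe sets.

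WRKY47 showed the same order of groups. The probe set read 6.37, 6.44 and 6.33 on apum23 arrays 1 to 3, against 5.13, 4.76 and 5.60 on wild-type arrays 1 to 3. The 3 apum23 arrays lay within a narrow band and all were above wild type, with a gap of 0.73 to the highest wild-type array, again replicate 3. The mean was 6.38 ± 0.05 in apum23 and 5.17 ± 0.42 in wild type (SD, n = 3 each). The log2 difference was 1.21 with a standard error of 0.17 and a 95% interval of 0.84 to 1.59 (limma adjusted p = 0.000551). It ranked 144th from the top among all tested probe sets.

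Both calls rest on limma's variance, which borrows from all probe sets. With each gene's own variance alone, the adjusted p was 0.0643 for WRKY53 and 0.0654 for WRKY47, and neither was called. On the deposited values of all 6 arrays, without a block, limma used a common variance for all probe sets. A gene's own spread therefore did not enter the adjusted p-values there. The deposited values without wild-type replicate 3 behaved alike. There WRKY20 and WRKY22, both at 0.39, had limma adjusted p = 0.467 and 0.468, although WRKY22 varied more between arrays. How much a gene's own spread counted in the other deposited fits with an array left out is not given here.

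WRKY6, known for roles in senescence, defence and the repression of the phosphate transporter gene PHO1, was higher in apum23 by a small amount that did not pass the test. On the same log2 scale it was at 5.68, 6.18 and 5.84 on apum23 arrays 1 to 3, against 5.63, 5.27 and 5.69 on wild-type arrays 1 to 3. The groups overlapped by a margin of 0.01, since apum23 replicate 1 lay just under wild-type replicate 3. The mean was 5.90 ± 0.25 in apum23 and 5.53 ± 0.23 in wild type (SD, n = 3 each), a log2 difference of 0.37 with a 95% interval of 0.04 to 0.69 and a limma adjusted p = 0.111. On the deposited values without normalization between arrays, the difference was called in 2 combinations, with the replicate number as a block (0.54, limma adjusted p = 0.0431) and without wild-type replicate 3 (0.74, limma adjusted p = 0.0303). The fit without wild-type replicate 3 gave a gene's own spread little or no weight.

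WRKY20 was read far above the lower quartile, brighter than 74.9% to 78.9% of all probe sets on each array. It was at 7.80, 7.78 and 7.65 on apum23 arrays 1 to 3, against 7.596, 7.57 and 7.50 on wild-type arrays 1 to 3. The groups did not overlap, but the gap was only 0.06. The means were 7.74 ± 0.08 in apum23 and 7.56 ± 0.05 in wild type (SD, n = 3 each), and the log2 difference of 0.19 had a 95% interval of -0.02 to 0.40 (limma adjusted p = 0.211). In all, the genotypes were fully separated in 3 of the 6 genes, each time with apum23 higher, while 34.3% of all tested probe sets were separated in either direction and 15.9% with apum23 higher.

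The dim members showed no separation of the groups. WRKY22 is a target of the MAP kinase cascade that acts downstream of flagellin perception. The log2 readings were 4.34, 4.96 and 4.37 on apum23 arrays 1 to 3, against 4.20, 4.52 and 4.59 on wild-type arrays 1 to 3. Only apum23 replicate 2 stood above the wild-type arrays, and the log2 difference was 0.12 with a 95% interval of -0.24 to 0.48 (limma adjusted p = 0.697). Without apum23 replicate 2 it was -0.081, also not called.

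WRKY42, like WRKY6 a repressor of PHO1, had the only difference below 0. The probe set was at 3.72, 3.86 and 3.65 on apum23 arrays 1 to 3, against 3.93, 3.91 and 3.61 on wild-type arrays 1 to 3. All of these readings lay within 0.4 of the lower quartile, and the groups overlapped. The log2 difference was -0.073 with a 95% interval of -0.33 to 0.18 (limma adjusted p = 0.734). On the deposited values its sign was positive, at 0.07, also without a call.

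**Figure D2:**
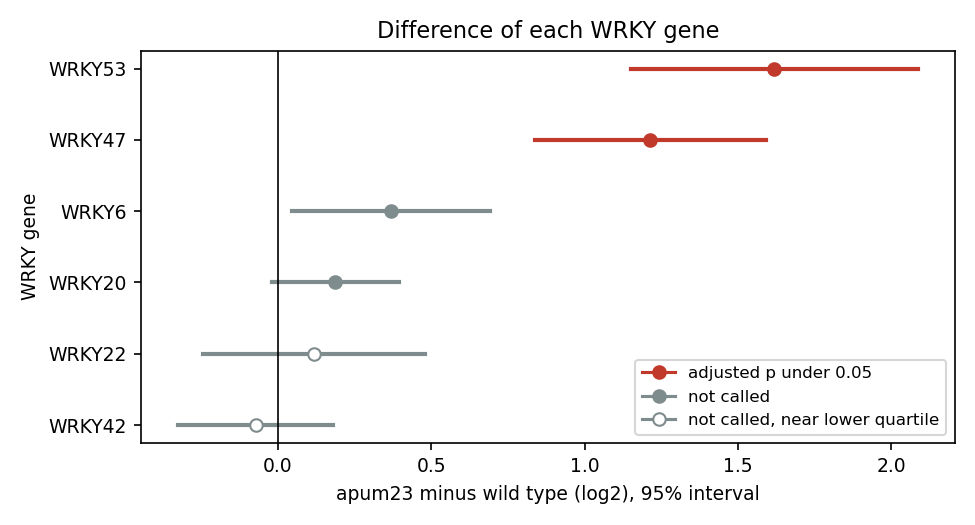
Log2 difference, apum23 minus wild type (horizontal axis), of each WRKY gene with its 95% interval from limma (n = 3 arrays each); red marks an adjusted p under 0.05 and open circles mark the genes near the lower quartile. The intervals of WRKY53 (1.15 to 2.09) and WRKY47 (0.84 to 1.59) lie far from 0, that of WRKY6 begins at 0.04, and those of WRKY20, WRKY22 and WRKY42 span 0.

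**Figure D3:**
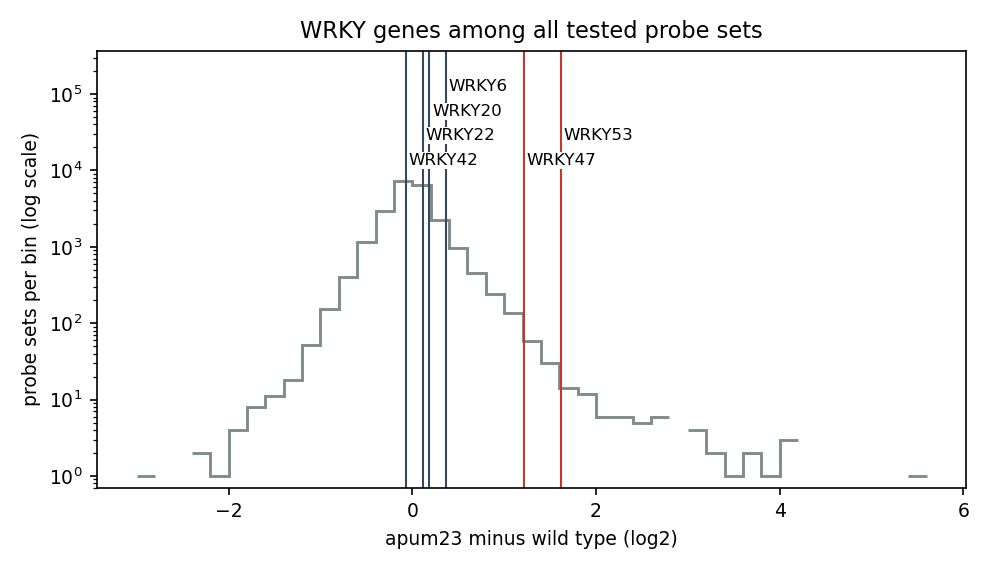
Number of tested probe sets (vertical axis, log scale) in bins of the log2 difference, apum23 minus wild type (horizontal axis), with a vertical line at each WRKY gene, red where called. WRKY53 at 1.62 and WRKY47 at 1.21 lie in the upper tail, and the other 4 genes lie in the bulk between -0.073 and 0.37.

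Of the 3 members of subgroup IIb, WRKY47 rose by 1.21 on the log2 scale, while WRKY6 was at 0.37 and WRKY42 at -0.073. Neither of these 2 was called, and WRKY42 lay near the lower quartile. To set members against each other, the log2 difference between a pair of probe sets was taken within each array and compared between genotypes, for the 6 pairs of well-measured genes. WRKY47 minus WRKY6 was 0.48 ± 0.21 in apum23 and -0.36 ± 0.24 in wild type (SD, n = 3 each), without overlap of the groups. WRKY53 minus WRKY47 was 0.37 ± 0.16 in apum23 and -0.031 ± 0.22 in wild type, also without overlap, a shift of 0.41. WRKY6 and WRKY20 shifted least against each other, by 0.18, with overlapping groups. With 3 arrays against 3 the smallest two-sided exact permutation p is 0.1, which 5 of the pairs reached and which gave 0.12 after Benjamini-Hochberg adjustment over the 6 pairs, so no pair could pass 0.05. The remaining pair, WRKY6 and WRKY20, had an exact permutation p = 0.5. The 5 separated pairs all hold WRKY53 or WRKY47, so their shifts restate the differences of these genes and are no separate evidence.

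Within a genotype, the array with the highest reading was often the same for several members on the normalized scale. Of the 3 apum23 arrays, replicate 2 was the highest for 5 of the 6 genes, all but WRKY20, and replicate 1 was the highest for WRKY20. Over all probe sets, apum23 replicate 2 was the highest of its group in 37.2%. Of the wild-type arrays, replicate 3 was the highest for 4 genes (WRKY6, WRKY22, WRKY47 and WRKY53), against 33.5% of all probe sets, and replicate 1 for WRKY20 and WRKY42. On the deposited values apum23 replicate 2 was the highest for 4 of the 6 genes, against 18.3% of all probe sets. Replicate 3 was the highest for WRKY20 and WRKY47, against 79.4%. Wild-type replicate 3 was the highest for 5 of the 6 genes there, against 58.5%, so both counts and shares change with the scaling. No test of variation shared between members was run. With each array left out in turn, the normalized log2 difference of WRKY53 ran from 1.46 to 1.92 and that of WRKY47 from 1.01 to 1.43, and both genes were called each time.

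**Figure D4:**
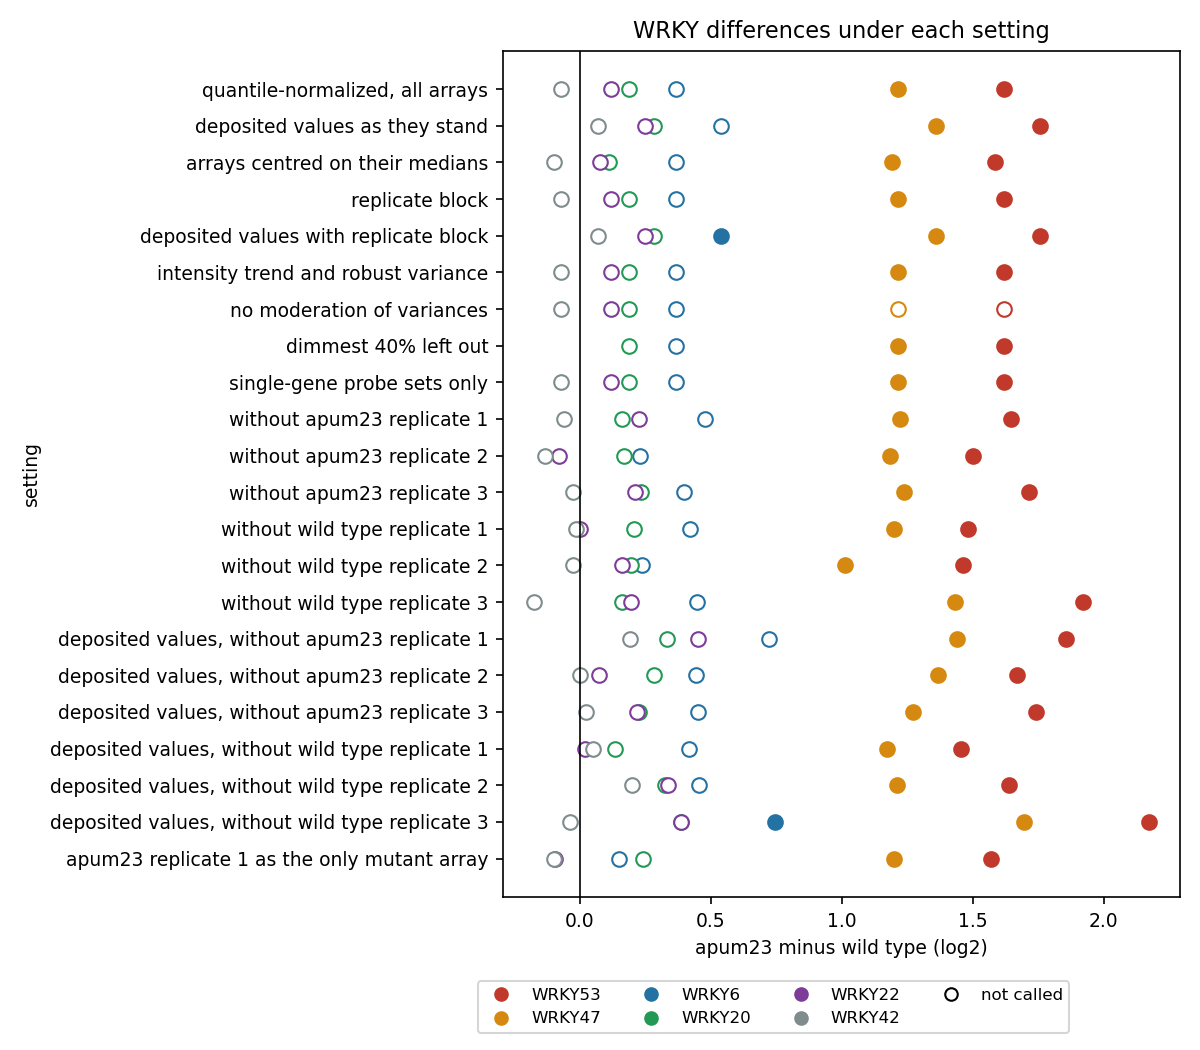
Log2 difference, apum23 minus wild type (horizontal axis), of each WRKY gene under the settings listed on the vertical axis; filled circles are called at an adjusted p under 0.05 and open circles are not. WRKY53 and WRKY47 lie above 1 throughout and are called except without moderation of variances, and WRKY6 is called only on the deposited values with the replicate block (0.54) or without wild-type replicate 3 (0.74); WRKY22 and WRKY42 are too dim for the setting that leaves out the dimmest 40%.

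Genes that work with WRKY proteins were thinly covered by probe sets that carry a gene name. A gene counted as measured only if a tested probe set was paired with it alone, and 8730 of 22746 were unnamed. A gene not counted may therefore still have an unnamed probe set on the array. Across 11 lists of defence, hormone, senescence, phosphate and trichome genes, 8 of 104 genes were measured, and of these 2 rose and 2 fell, while the other 4 were not called. Over all tested probe sets 9.69% were higher and 10.0% lower. The median log2 difference of the 8 genes was 0.32, against -0.017 for all tested probe sets, and so few genes from mixed pathways do not describe a pathway. The lists for the MAP kinase cascade, camalexin, abscisic acid, phosphate transport and trichome fate had 0 members measured in this sense.

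Both measured genes of the pattern receptor list were called, in opposite directions. BIK1, a cytoplasmic kinase that relays receptor signals, was at 7.36, 7.28 and 7.43 on the apum23 arrays, against 6.83, 6.74 and 6.99 on the wild-type arrays (log2 difference 0.50, limma adjusted p = 0.00549). EFR, the receptor for bacterial elongation factor Tu, was at 5.12, 4.396 and 4.65 on the apum23 arrays, against 5.203, 5.14 and 5.49 on the wild-type arrays (log2 difference -0.56, limma adjusted p = 0.0373). The groups did not overlap for either gene. EFR was not called on the deposited values (-0.37, limma adjusted p = 0.482), with arrays centred on their medians (limma adjusted p = 0.076), or without apum23 replicate 2 (-0.39) or 3 (-0.52) or wild-type replicate 1 (-0.59), 2 (-0.62) or 3 (-0.45). BIK1 was not called on the deposited values (0.61, limma adjusted p = 0.0791).

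SAG101, a partner of EDS1 in salicylic acid-linked immunity, was the 1 measured gene of 22 on its list and rose by 0.74 (limma adjusted p = 0.00576). It lay below the well-measured limit, at 4.65 ± 0.22 in apum23 and 3.91 ± 0.29 in wild type (SD, n = 3 each). Of 2 measured jasmonate genes, the thionin gene THI2.1 fell by 0.59 on the log2 scale (limma adjusted p = 0.00871), and the defensin gene PDF1.2 did not pass (0.49, limma adjusted p = 0.208). THI2.1 was dim, and it was not called on the deposited values (limma adjusted p = 0.229). PDF1.2 was called without wild-type replicate 3 (0.82, limma adjusted p = 0.00751).

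The stress-induced zinc finger gene STZ, also known as ZAT10, represented the early pattern-triggered genes. It was at 7.75, 8.25 and 7.81 on the apum23 arrays, against 5.59, 7.34 and 7.51 on the wild-type arrays, without overlap. The log2 difference of 1.12 did not pass (limma adjusted p = 0.0645), and 1 array set its size: without wild-type replicate 1 it was 0.51 and called (limma adjusted p = 0.043). It was also called with the replicate block (limma adjusted p = 0.0126) and without wild-type replicate 3 (1.47, limma adjusted p = 0.0189). On the deposited values STZ was called at 1.23 (limma adjusted p = 4.05e-06). That fit used a common variance for all probe sets, which left out the wide wild-type spread of STZ (SD 1.06 on normalized values). IKU1, whose protein carries the VQ motif through which partners bind WRKY proteins, was at 0.15 (limma adjusted p = 0.476). SAG29, the 1 measured gene of the leaf senescence list, was dim and was at -0.057 (limma adjusted p = 0.823).

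The measured leaf photosynthesis markers were bright. Of 8 leaf photosynthesis markers 2 were measured, RCA at 13.78 in apum23 and 13.71 in wild type, and PRK at 12.28 in apum23 and 12.71 in wild type. PRK fell by 0.44 on the log2 scale (limma adjusted p = 0.0172), and it was not called on the deposited values (-0.41) or without apum23 replicate 1 or 2. The 2 measured root markers of 7, EXPA7 and EXPA18, had means between 3.62 and 4.16 in apum23 and between 3.74 and 4.06 in wild type, close to the lower quartile, and neither was called. The 3 measured stomatal lineage markers of 5 were not called, with differences between -0.24 and 0.083. Of these, MUTE was dim, at 4.09 in apum23 and 4.01 in wild type. No flower marker had a probe set paired with it alone. The part of tissue composition in the WRKY differences was not tested, and in whole aerial parts more cells of a type and more RNA per cell cannot be told apart.

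Before normalization the array medians lay between 5.70 and 6.10 in apum23 and between 5.34 and 5.94 in wild type. After it, arrays of the same genotype correlated at 0.994 to 0.996 and arrays of different genotypes at 0.983 to 0.987 over all probe sets. Actin probe sets at the 3′ and 5′ ends of the transcript can show RNA breakdown. Their log2 difference (3′ less 5′) was 3.88 ± 0.16 in apum23 and 3.91 ± 0.19 in wild type on the older control probe sets (SD, n = 3 each, two-sided exact permutation p = 0.8). On the newer control probe sets it was 1.42 ± 0.08 in apum23 and 1.59 ± 0.07 in wild type (SD, n = 3 each, two-sided exact permutation p = 0.1, the smallest possible).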

How the data were processed

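The authors deposited log2 intensities for 22810 probe sets. RMA and limma are named, without version, per the submitters' processing notes. The deposited arrays do not share 1 distribution, so after 64 control probe sets were left out the 22746 others were quantile normalized before testing. Differences between apum23 and wild type were tested two-sided in R 4.3.3 by limma 3.58.1 (moderated fit without a block). P-values were adjusted by Benjamini-Hochberg over the 22746 probe sets, and a gene was called at an adjusted p under 0.05. The probe table pairs 13513 tested probe sets with 1 gene, 503 with several (not used) and leaves 8730 unnamed. Of the 13513, 13436 matched RefSeq TAIR10.1 symbols, and the brightest probe set stood for a gene.

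Members, lists, scaling and the rule for named genes were chosen with earlier results of these data known. All members are named; from each list, up to 2 higher and 2 lower called genes, or the largest difference where none was called, with further list genes and markers named after their values were seen. The pair comparison within arrays was added after seeing the data. Alternatives were the deposited values, median centring, the replicate block, other variance models, filters, thresholds and each array left out. The fit was tested on simulated data. The number of arrays limits the precision, and no source used here says how plants were pooled, so p-values cover the spread between these samples only.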

Additional observations from a re-analysis of the deposited data

How the results depend on the processing

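WRKY53 and WRKY47 stayed higher in apum23 in the 23 other settings run for each and were called in 22. The exception was the fit without moderation of variances, where 0 of the 6 WRKY genes and 0 of the well-measured ones were called by their own variance. On the deposited values, the fits of all arrays without a block and without wild-type replicate 3 gave a gene's own spread little or no weight. Differences over the 23 settings ran from 1.46 to 2.17 for WRKY53 and from 1.01 to 1.70 for WRKY47. On the deposited values they were 1.76 and 1.36, and with replicate 1 as the lone apum23 array, assumed to vary like the wild-type arrays, WRKY53 was at 1.57 (limma adjusted p = 0.0273) and WRKY47 was also called (limma adjusted p = 0.0387). The median difference of all probe sets was 0.082 on the deposited values and -0.088 with arrays centred on their medians, against -0.017. Of all probe sets 4481 were called, against 1522 on the deposited values (1208 higher, 314 lower), 2997 with centred arrays (1196 higher, 1801 lower), 2095 without moderation, 2425 with single-gene probe sets only (fewer tested), 1661 with that lone apum23 array, 382 where the log2 difference had to reach 1 in size, 2462 at an adjusted p under 0.01, and 2915 to 4011 with each array left out. List genes that fell numbered 0 on the deposited values, 1 with centred arrays and 1 to 2 with each array left out, and those that rose 2 to 4, with 4 without wild-type replicate 3. Same-numbered arrays deviated with correlations of -0.21, 0.029 and 0.00028, and none (0 of 6) was closest to the array of its own number, which gives no sign of pairing. Under the replicate block, limma called 3992 probe sets, 2 WRKY genes rose and 3 list genes rose. The deposited values with the replicate block or with an array left out were chosen after seeing the data. Each WRKY gene has 1 probe set, so averaging probe sets changes nothing. With the well-measured limit 0.5 above the lower quartile 5 genes were well measured, and with the limit at the array median 3. WRKY47 and WRKY53 passed the array median of 5.77 only through their apum23 readings, since their wild-type means were 5.17 and 5.13. That limit therefore gives their calls no separate support. The cause of these changes was not tested except where a reason is given. WRKY22 and WRKY42 lay below the well-measured limit of the main setting, and whether low signal limits their differences was not tested.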

Other observations

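ZAP1, the group I gene also known as WRKY1, falls outside the symbol rule and was looked at after the others. Its normalized log2 intensity was 7.89 ± 0.09 in apum23 and 7.85 ± 0.10 in wild type (SD, n = 3 each), a difference of 0.04 with a 95% interval of -0.18 to 0.27 (limma adjusted p = 0.825). Like WRKY20, the other measured gene of group I, it was bright on every array and was not called.

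The nearest measured genes on either side of each WRKY gene, in the gene order of assembly TAIR10.1, were also read after the members' values were seen. Of 12 such neighbours 9 were directly adjacent, and 1 rose and 1 fell, while 10 were not called. These counts lie near the shares over all tested probe sets, 9.69% higher and 10.0% lower. The median log2 difference of the neighbours was -0.075, against -0.017 for all tested probe sets. Next to WRKY53, 3xHMG-box2, a chromatin protein gene, rose by 0.44 (limma adjusted p = 0.038), and AT4G23820 on the other side was at -0.10 (limma adjusted p = 0.643). Next to WRKY47, CRK was at 0.00091 and AT4G01730 at 0.12, and neither was called. Next to WRKY6, AT1G62290 fell to 5.36, 5.35 and 5.54 on the apum23 arrays, against 6.15, 6.24 and 6.05 on the wild-type arrays (log2 difference -0.73, limma adjusted p = 0.000546), while WRKY6 itself was at 0.37 and not called.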
